A study of Mus musculus with 15 samples.

Results

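The 39 clustered Hox genes were read out of bulk RNA-sequencing counts of cultured mouse bone marrow MSCs. They were chosen by symbol alone, as every gene named Hoxa, Hoxb, Hoxc or Hoxd followed by a number, and make up 39 of the 56832 genes counted. The 15 libraries came from cultures of 16 week old mice on a C57BL/6J background, either TauT+/+ (WT, 7 libraries) or with a global knockout of Slc6a6, TauT-/- (KO, 8 libraries), with no other treatment. Their labels gave 4 male and 3 female WT and 4 male and 4 female KO libraries. The knockout is present in every tissue. Per the methods the marrow came from femurs and tibia, and the labels do not tell which of the bones a library came from. Nothing in the labels says which libraries came from separate cultures or animals, so p-values measure the spread between these libraries only.

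HOX proteins are homeodomain transcription factors that give cells their position along the head to tail axis and, in limbs, from shoulder or hip to the digits. Low-numbered genes of a cluster are used toward the head and the trunk side of the limb, and high-numbered genes toward the tail and the digits. Stromal and skeletal cells keep much of this code in adult tissue and in culture. In limbs, genes of groups 9 and 10 mark the upper segment, Hoxa11 and Hoxd11 the middle segment and Hoxa13 and Hoxd13 the hand and foot.

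The following windows of the genome are shown because they lie just upstream of the member with the widest range between libraries (Hoxa13) and the member closest to the threshold of the genotype test (Hoxc5). Each holds the 250 bases before the start of the gene's canonical transcript in GENCODE M39, read from GRCm39 in the direction of transcription, with CG dinucleotides in capitals. The positions are chr6:52237823-52238072 on the minus strand for Hoxa13 and chr15:102921997-102922246 on the plus strand for Hoxc5. Neither window holds an annotated exon of a gene whose span overlaps that of its Hox cluster. The Hoxa13 window lies just outside the HoxA span (chr6:52132570-52237822), and exons of genes wholly beyond that span were not counted. The Hoxc5 window lies inside the span annotated for Hoxc5 (chr15:102875878-102925861), so it is upstream of the canonical transcript and not of the whole gene.
Hoxa13: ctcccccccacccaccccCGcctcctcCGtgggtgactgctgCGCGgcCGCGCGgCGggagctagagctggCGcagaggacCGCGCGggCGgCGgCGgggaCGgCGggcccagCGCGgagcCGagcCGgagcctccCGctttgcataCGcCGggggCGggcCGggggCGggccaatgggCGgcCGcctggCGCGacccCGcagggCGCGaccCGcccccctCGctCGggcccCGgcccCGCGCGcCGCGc
Hoxc5: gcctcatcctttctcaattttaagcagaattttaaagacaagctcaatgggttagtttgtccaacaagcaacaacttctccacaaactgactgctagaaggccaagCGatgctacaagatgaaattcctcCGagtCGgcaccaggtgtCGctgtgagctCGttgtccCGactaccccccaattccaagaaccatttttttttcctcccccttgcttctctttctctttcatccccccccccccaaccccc
The Hoxa13 window held 43 CG, more than 99.7% of the 21770 windows read for protein-coding genes. The Hoxc5 window held 6 CG (41.3% of windows held fewer), against a median of 8. Neither TATAAA nor TGATNNAT, a form of the sequence that HOX and PBX proteins bind together, was found in these windows on either strand. TATAAA was found in 11.9% and TGATNNAT in 7.0% of all windows.

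The libraries with a male label held 69764291 to 101575071 counts and those with a female label 12761107 to 20781070, so depth and sex label cannot be told apart. The limit that 3 counts set was 0.0305 to 0.0437 CPM (counts brought to the same library size by TMM normalization) in the former and 0.138 to 0.229 CPM in the latter, for counting error only. Slc6a6 ranged from 592 to 2591 CPM in WT and from 401 to 1521 CPM in KO libraries, so the targeted gene overlapped between the genotypes, and libraries are named by their labels. In 3 libraries Xist and Ddx3y went against the sex label (WT male 1, KO male 1 and WT female 3). The libraries KO male 1 and KO female 1, and WT male 1 and WT female 1, differed by a spread of 0.097 and 0.108 in the log2 ratio of counts, against 0.277 for the next closest pair and 0.0547 and 0.057 from counting alone. All were kept, and fits without 1 of each pair are given beside the genotype results. Of the stromal markers, all 15 were detected well enough to be tested, with a summed level of 28510 to 47920 CPM in WT and 6382 to 40860 CPM in KO, while Lepr was near 1 CPM. The sum of 14 macrophage markers was 1409 to 9626 CPM in WT and 6671 to 20660 CPM in KO. The endothelial sum was 2.68 to 9.86 CPM in WT and 8.78 to 37.7 CPM in KO. It was highest in KO female 3 and 4, the libraries with the lowest summed Hox level. Of its genes Kdr averaged 2.90 CPM in WT and 16.1 CPM in KO. Pecam1 (1.31 and 1.16 CPM) and Egfl7 (1.26 and 1.12 CPM) were fitted lower in KO, and Cdh5 and Tek averaged under 1 CPM in both genotypes. Of the 5 tested endothelial genes 3 were fitted higher in KO (Kdr, Cdh5 and Tek) and 2 lower. Kdr had a log2 fold change of 2.14 (edgeR adjusted p = 0.0561, DESeq2 adjusted p = 0.000833). Whether the number of endothelial cells differed was not tested, nor was the part of the sum in the Hox levels. Erythroid markers summed to at most 0.115 CPM. In bulk libraries, fewer cells of a type and less RNA per cell cannot be told apart.

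The cultures carried a HoxA and HoxC code with HoxB in most libraries and almost no HoxD. A median of at least 1 CPM was reached by 25 of the 39 members: 9 of 11 in HoxA (chr6:52132570-52237822), 7 of 10 in HoxB (chr11:96085106-96259082), 9 of 9 in HoxC (chr15:102829538-102945278) and 0 of 9 in HoxD (chr2:74498654-74595486). Per kb of exon, HoxC held 49.7% ± 7.93 (SD, n = 15) of the summed Hox level of a library, HoxA 35.9% ± 9.67, HoxB 13.99% ± 9.38 and HoxD 0.402% ± 0.672. The share of HoxC went from 34.1% to 58.9%, and that of HoxB from 0.754% to 37.9%, the widest relative spread of the well expressed clusters. Hoxd1 and Hoxd12 had no count in any library, and Hoxb1, Hoxb13, Hoxd3, Hoxd4, Hoxd10, Hoxd11 and Hoxd13 had at most 34 counts over all 15. These 9 members did not pass the filter on low counts, and the other 30 were tested.

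**Figure D1:**
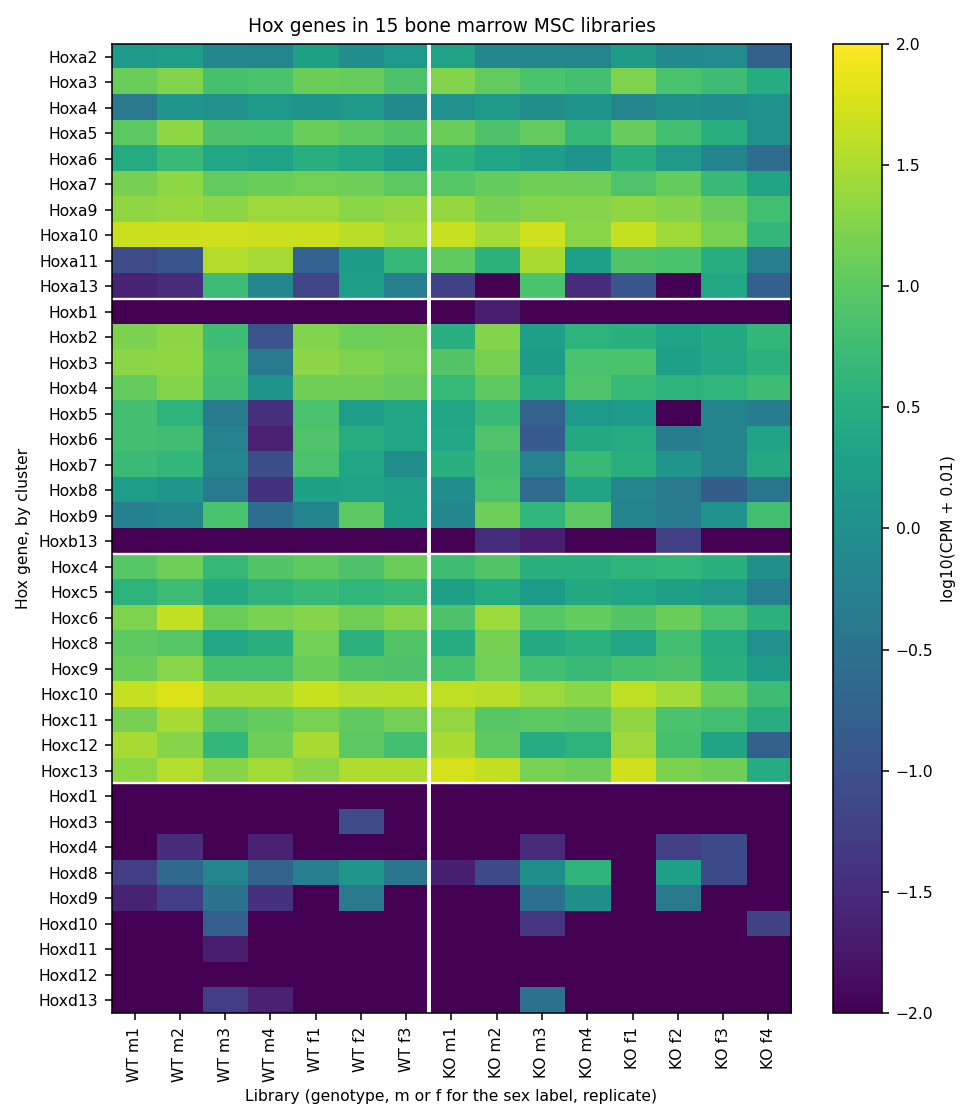
Level of 38 of the 39 Hox genes (rows, by cluster) in 15 libraries (columns; m and f are the sex labels), as log10(CPM + 0.01), with the WT libraries left of the white line. Most HoxA and HoxC rows are filled, with Hoxa11 and Hoxa13 dark in part of the libraries and KO female 4 fainter than the rest, HoxB is dark in WT male 4, and HoxD is dark in nearly all.

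Hoxc10 had the highest mean level. Per kb of exon, Hoxc10 averaged 16.2 ± 6.96 CPM (SD, n = 15) and Hoxa10 11.1 ± 4.56, both of which pattern the upper limb segment and the lumbar and sacral region. Hoxc10 was above Hoxa10 in 13 of 15 libraries, by 0.57 ± 0.43 on the log2 scale. Hoxc13, the last gene of its cluster and known for its role in hair and nails, averaged 10.8 ± 6.04 CPM per kb. It did not differ from Hoxa10 beyond the spread (log2 ratio of Hoxa10 to Hoxc13 0.11 ± 0.68, above 0 in 9 of 15 libraries). Hoxc11 (6.46 ± 3.53), Hoxc6 (5.92 ± 3.71) and Hoxa5 (4.77 ± 2.49 CPM per kb) came next, and their neighbours in this order lay within the spread of each other, while Hoxc13 stood above Hoxc11 in 13 of 15 libraries.

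Without scaling by length, Hoxa10 had 28.2, 47.9 and 51.6 CPM (lowest, median and highest) in WT and 4.38, 27.7 and 52.1 CPM in KO. Hoxc10 had 30.3, 36.9 and 62.1 CPM in WT and 5.58, 26.5 and 42.1 CPM in KO. For both genes KO female 4 was the lowest library. With it, 4 of 8 KO libraries lay below every WT library for Hoxa10 and 5 of 8 for Hoxc10, and the others reached into the WT range. Hoxc13 had 19.1, 27.8 and 35.9 CPM in WT and 2.87, 16.1 and 54.8 CPM in KO, where KO male 1 and KO female 1, the near-identical pair, held the highest levels (54.8 and 50.6 CPM).

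**Figure D2:**
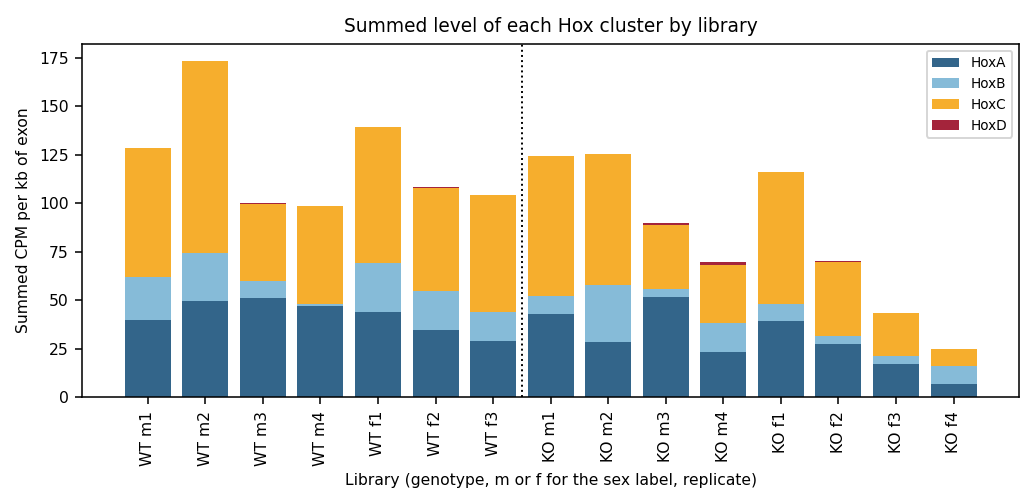
Summed CPM per kb of exon of each Hox cluster (stacked) in each library, WT left and KO right of the dotted line. HoxA and HoxC make up most of each bar, and the bar of KO female 4 is the shortest.

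The levels varied more than those of most genes. The SD between libraries of a group had a median of 0.97 log2 units over the 30 tested members and of 0.49 over all 17204 genes tested, and the range over 15 libraries had medians of 4.06 and 1.88. The spread differed between members: HoxC and HoxA had median SDs of 0.77 and 0.84, and HoxB 1.87. Hoxa4 and Hoxa9 were the steadiest, with ranges of 1.90 and 2.08 log2 units, against 10.3 for Hoxa13, 8.75 for Hoxa11 and 8.63 for Hoxb6.

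Hoxa11, which marks the middle segment of the limb, was nearly off in some libraries and strong in others. It had 0.0728, 0.100, 34.4 and 29.0 CPM in WT male 1 to 4 and 0.172, 1.61 and 4.65 CPM in WT female 1 to 3. In KO male 1 to 4 it had 10.6, 3.70, 31.3 and 1.82 CPM, and in KO female 1 to 4 it had 8.17, 7.34, 3.06 and 0.521 CPM. The WT libraries, male 1, male 2 and female 1 were therefore lower than every KO library, 2 of them being the near-identical pair, while WT male 3 and 4 and KO male 3 were the highest, and the genotypes overlapped. The neighbour Hoxa10 stayed at 47.8 to 49.8 CPM in those 3 low libraries, so the number of Hoxa11 counts per 100 Hoxa10 counts ran from 0.151 in WT male 1 to 66.6 in WT male 3.

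The antisense gene Hoxa11os overlaps 1010 bases of the Hoxa11 exons and was likewise lowest in WT male 1 (0 CPM), with 4.88 and 5.26 CPM in WT male 3 and 4 and 5.58 CPM in KO male 3. Its counts over all libraries were 16.9% of those of Hoxa11. Per the methods, reads were counted with a strand-specific setting of featureCounts. The labels do not say whether the library kit marks strand, so reads of the pair may be shared.

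Hoxa13, which marks the hand and foot, was highest in WT male 3 (5.45 CPM) and KO male 3 (7.33 CPM), followed by KO female 3 (2.43) and WT female 2 (1.68 CPM). All others were at 0.713 CPM or below, and KO male 2 and KO female 2 had no count. WT male 3 and KO male 3 were also high for Hoxa11, and Hoxd13 and Hoxd10 showed their few counts mainly there (Hoxd13 with 29 counts in KO male 3 and 4 in WT male 3, Hoxd10 with 14 counts in WT male 3).

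**Figure D3:**
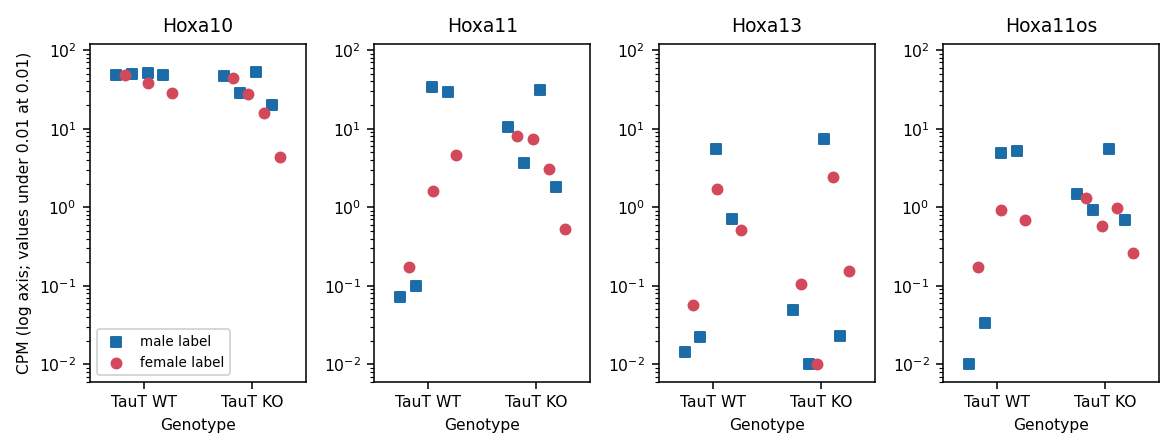
CPM of Hoxa10, Hoxa11, Hoxa13 and the antisense gene Hoxa11os on a log axis, 1 point per library, by genotype (squares for the male label, circles for the female). Hoxa10 stays within a narrow band apart from KO female 4, while Hoxa11 runs from 0.0728 to 34.4 CPM in WT and from 0.521 to 31.3 CPM in KO, and Hoxa13 from under 0.1 to over 5 CPM in both genotypes.

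HoxB, whose low-numbered genes are used in the hindbrain and in blood progenitors, ranged from a summed 2.12 CPM in WT male 4 to 83.6 CPM in KO male 2. In WT male 4 the genes from Hoxb2 to Hoxb9 apart from Hoxb5 were at their lowest of all libraries. Hoxb3 had 20.1, 21.0, 6.96 and 0.457 CPM in WT male 1 to 4, and 20.1, 16.8 and 14.8 CPM in WT female 1 to 3. It had 8.37, 15.2, 1.61 and 7.11 CPM in KO male 1 to 4 and 7.44, 1.82, 2.50 and 3.70 CPM in KO female 1 to 4. WT male 1, WT male 2 and WT female 1 were the highest, and WT male 4, KO male 3 and KO female 2 the lowest, so the genotypes overlapped. Hoxb4, the highest HoxB member per kb (3.10 ± 1.89), had 1.16, 11.7 and 18.3 CPM (lowest, median, highest) in WT and 2.81, 4.81 and 10.2 CPM in KO. Hoxb9 was highest in KO male 2 (13.1 CPM), WT female 2 (9.94) and KO male 4 (9.91 CPM) and under 1 CPM in 7 libraries.

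The antisense gene Hoxb3os, which shares 51.5% of the Hoxb3 exon bases on the other strand, ranged from 0.229 to 12.2 CPM in WT and from 0.556 to 5.85 CPM in KO. Over all libraries its counts came to 34.8% of those of Hoxb3 and 40.1% of those of Hoxb2. In single libraries with over 100 counts of the member they were 9.16% to 82.0% of Hoxb3 and 31.3% to 96.2% of Hoxb2, so the levels of both members are uncertain. Hotairm1 reached 258% of Hoxa2, Gm56053 37.2% of Hoxa2, Gm15050 16.2% of Hoxa3 and Hoxaas3 22.5% of Hoxa4. Gm15050 shares no exon bases with Hoxa3, and Hoxaas3 none with Hoxa4. HoxD was present through Hoxd8 and Hoxd9 in part of the libraries: Hoxd8 had 0.0437, 0.368 and 1.30 CPM in WT and 0, 0.0692 and 3.94 CPM in KO (lowest, median, highest), the highest being KO male 4.

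KO male 2 was highest for Hoxc8 (15.1 CPM), Hoxb8 (7.13) and Hoxb9 (13.1), which are used at trunk levels. It was also the library with 9.20 CPM of Tbx5, the gene of forelimb identity, against at most 0.691 CPM elsewhere. Pitx1, the gene of hindlimb identity, had 0.772 to 42.8 CPM in WT and 4.01 to 14.8 CPM in KO (4.6 CPM in KO male 2). Tbx4 stayed at or below 0.461 CPM. The posterior genes Hoxc13 and Hoxc10 had 43.0 and 37.6 CPM in KO male 2, against medians of 21.3 and 35.9 CPM over 15 libraries. The part of the tissue source in these differences was not tested.

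Between the genotypes no Hox gene passed the test, and most were fitted lower in KO. The edgeR quasi-likelihood test over 17204 genes, with Benjamini-Hochberg adjustment, called 0 of 30 tested members lower and 0 higher at an adjusted p under 0.05, against 0.75% and 0.546% of all genes. At an unadjusted p under 0.05, 7 of 30 members were lower (among them Hoxa7, Hoxa9, Hoxb4, Hoxc4, Hoxc5 and Hoxc6) and 0 higher, against 13% and 10.6% of all genes. A fitted value below 0 was found for 25 of 30, against 51.7% of all genes, and above 0 for 5, against 48.3%. The median log2 fold change was -0.59 over the members and -0.02 over all genes tested. It went from -0.67 to -0.38 when 1 library was left out, the latter without WT female 1. No tested member had genotypes that did not overlap, while 1.12% of all genes did.

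By cluster, 9 of 9 HoxC members were fitted lower (median -0.70), as were 9 of 11 in HoxA (median -0.46) and 7 of 8 in HoxB (median -0.82), while both HoxD members were fitted higher. These members share libraries and neighbours on the chromosome and are not independent of each other.

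Hoxc5, one of the genes of cervical and thoracic position, came closest to the threshold. It had 3.90, 5.53, 2.74 and 3.94 CPM in WT male 1 to 4 and 4.94, 4.36 and 5.07 CPM in WT female 1 to 3, and 1.88, 2.84, 1.49 and 2.68 CPM in KO male 1 to 4 and 2.25, 1.87, 1.39 and 0.521 CPM in KO female 1 to 4. Of the 8 KO libraries 7 lay below every WT library, and KO male 2 lay just above WT male 3. The fitted log2 fold change of Hoxc5 was -1.22 ± 0.29 (SE), with an edgeR adjusted p of 0.0557.

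Its neighbour Hoxc4 had 4.64, 8.97 and 13.2 CPM (lowest, median, highest) in WT and 0.990, 3.78 and 8.28 CPM in KO, with 6 of 8 KO libraries below every WT library (log2 fold change -1.16 ± 0.34 SE, edgeR adjusted p = 0.0793). Hoxc6 had 12.9, 17.0 and 42.4 CPM in WT and 3.70, 8.94 and 24.9 CPM in KO, with 7 of 8 below (log2 fold change -0.90 ± 0.33 SE, edgeR adjusted p = 0.125). Hoxc5 shares 5.37% of its exon bases with another gene on the same strand, and Hoxc4 and Hoxc6 share none. DESeq2, which called 6.31% of its tested genes lower and 5.28% higher, called Hoxc5 (adjusted p = 0.000821) and Hoxc4 (adjusted p = 0.0145) lower and no member higher. Both near-identical pairs were counted in full there, and DESeq2 was not run with 1 of each pair dropped.

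When 13 libraries were fitted, with 1 of each near-identical pair dropped, 0 members were called by edgeR, which called 0 of all genes lower and 2 or 7 higher in these fits, and the median log2 fold change was -0.65 with the female-labelled and -0.49 with the male-labelled libraries kept. The summed level of the 39 members was 265 to 458 CPM in WT and 67.0 to 335 CPM in KO. The macrophage sum went the other way between the genotypes: all 14 macrophage markers were fitted higher in KO. Of these 1 passed the threshold (Cd68, log2 fold change 1.46, edgeR adjusted p = 0.0445, and 0.0718 or 0.0974 in the fits of 13 libraries). Of the 15 stromal markers 11 were fitted lower, with 0 past the threshold in edgeR. DESeq2 called 7 of the 14 macrophage markers higher and 0 lower, against 5.28% and 6.31% of its tested genes. It called 2 of the 15 stromal markers lower (Pdgfra and Vcam1) and 0 higher. KO female 4, the lowest for 17 of the 30 tested members, had both the highest macrophage sum (20660 CPM) and the lowest stromal sum (6382 CPM). With the stromal list as an edgeR covariate, added after seeing the data, the median was -0.16 and 18 of 30 members were fitted lower. With the macrophage list as a covariate it was -0.43, with 24 of 30. In both fits edgeR called 0 members and 0 of all genes, and the share of all genes fitted lower is not given.

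**Figure D4:**
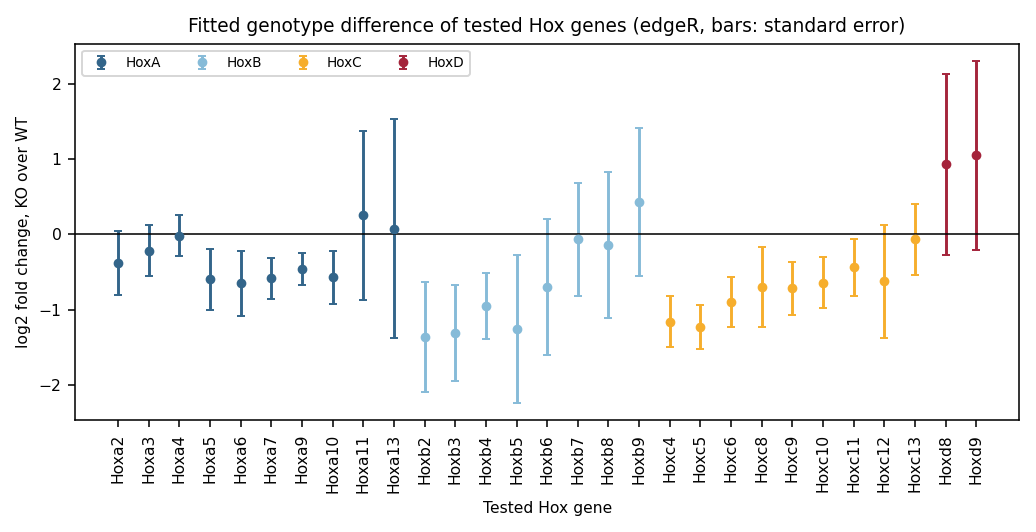
Fitted log2 fold change, KO over WT, of 29 of the 30 tested Hox genes (points, edgeR) with their standard errors (bars), by cluster. Hoxc5 at -1.22 and Hoxc4 at -1.16 have short bars below 0, while Hoxa11, Hoxa13, Hoxd8 and Hoxd9 have the widest bars and cross 0.

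**Figure D5:**
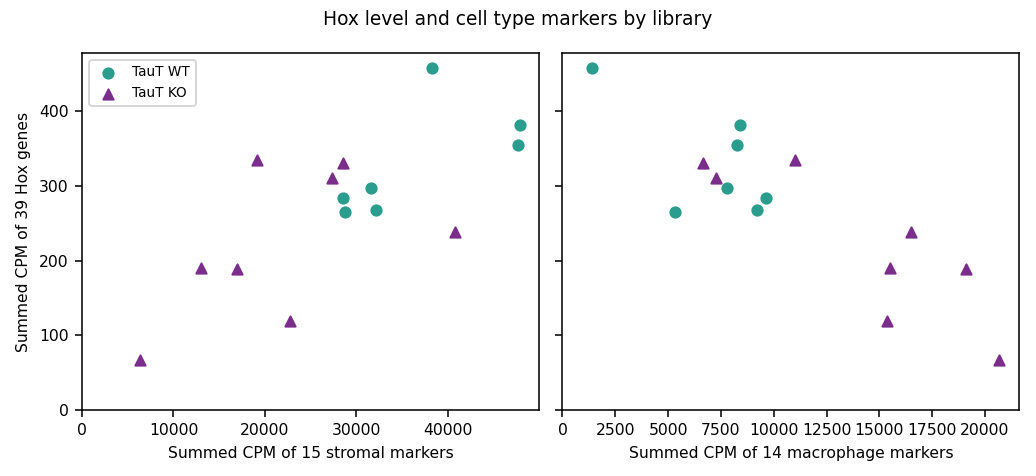
Summed CPM of the 39 Hox genes against the summed CPM of 15 stromal markers (left) and 14 macrophage markers (right), 1 point per library, circles for WT and triangles for KO. KO female 4 lies lowest on the Hox axis (67.0 CPM), with the lowest stromal and the highest macrophage sum.

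Within the sex labels no member was called either. In male-labelled libraries 21 of 30 members were fitted lower in KO and in female-labelled libraries 29 of 30, and edgeR called 0.0% of all genes in each. In the test of the difference between the labels it called 0.0% of all genes as well. The largest difference among those named was in Hoxb8, with a log2 fold change of 1.58 under the male label and -2.25 under the female label (edgeR adjusted p = 1.00 for the difference, unadjusted p = 0.0228). Between the male and female labels 0.0233% of all genes were called and 0 members, though 30 of 30 were fitted higher under the male label, which also marks the deeper libraries. For the tests within and between the labels the share of all genes fitted in each direction is not given. These directions are therefore not read as particular to the Hox genes.

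The partners and regulators of HOX proteins gave few calls in edgeR, which called 0.75% of all genes lower and 0.546% higher. DESeq2 called 6.31% of its tested genes lower and 5.28% higher. Of the 9 TALE cofactors, PBX, MEIS and PKNOX proteins that bind DNA with HOX proteins, all were tested and 0 passed in edgeR, with 8 fitted lower. Meis1 had 8.22 CPM on average in WT and 4.13 in KO (log2 fold change -0.97, edgeR adjusted p = 0.0993), and was the 1 cofactor that DESeq2 called (adjusted p = 0.0286). Of 18 genes of limb identity and patterning 14 were tested and 0 passed, with 11 fitted lower (median -0.29). Msx1, a homeobox gene of limb mesenchyme, was nearest, with a log2 fold change of -1.11 (edgeR adjusted p = 0.0594), and was the 1 gene of this list that DESeq2 called (adjusted p = 0.00482). Of 30 regulators of Hox genes, among them Polycomb and Trithorax proteins and retinoic acid receptors, 27 were tested and 1 passed in edgeR, with 18 fitted lower, while DESeq2 called 4 lower and 1 higher. The regulator that passed in edgeR was Rarb, a retinoic acid receptor. Rarb had 1.14, 4.47 and 7.64 CPM (lowest, median, highest) in WT and 0.313, 1.07 and 2.09 CPM in KO. Its log2 fold change was -2.11 ± 0.47 (SE), with an edgeR adjusted p of 0.0439. The WT libraries male 1 and female 1, a near-identical pair, held its highest levels (7.64 and 7.58 CPM). The edgeR adjusted p was 0.0925 or 0.111 with 1 of each such pair dropped, 0.202 with the stromal and 0.234 with the macrophage list as a covariate, and 0.0222 to 0.108 when 1 library was left out, so the call was lost in each but without WT male 3 or WT male 4.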

How the data were processed

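MSCs from marrow of TauT+/+ and TauT-/- mice were cultured and enriched, per the methods, by magnetic depletion of CD45, Ter119 and CD31 positive cells or by sorting. Per the labels, cDNA was primed by oligo-dT and amplified, and the submitters' processing notes name fastp 0.23.1, STAR 2.7.9a, Subread 2.0.1 and featureCounts. The authors deposited raw gene counts on GRCm39 with GENCODE M31, with no normalization. No column was left without a sample (0).

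Genotype and sex label were compared with edgeR 4.0.16 in R 4.3.3 (TMM, filterByExpr, quasi-likelihood test with sex label and genotype, Benjamini-Hochberg). DESeq2 1.42.0 and limma 3.58.1 (voom with quality weights) were alternatives. DESeq2 was given all genes and a filtering level of 0.05. Both choices were made with the study's and earlier counts of called genes in view. The input was changed from genes with at least 1 count, which gave 1136 lower and 968 higher genes, to all genes, which gave 1139 and 952, after both could be compared with those counts. The calls among Hox genes did not differ between these inputs (2 lower in each).

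Exon lengths and positions come from GENCODE M39 on GRCm39, with all 39 symbols matched. The values of 1 member are not reported here, though it is part of the counts and medians over members. Members and gene lists were chosen with earlier results of these data known. The text names the members with the 6 highest levels per kb, the highest of each cluster, those near the threshold and list genes past it. It also names genes whose annotated span overlaps that of a member and that have at least 10% of its counts. In simulated data of 17204 genes with 200 changed 4-fold, the changed genes made up 146 of the 152 calls of edgeR (73% recovered). DESeq2 called 222, of which 169 were changed (84.5% recovered), and voom called 162, of which 151 were changed (75.5% recovered). These percentages are shares of the 200 changed genes and not of the calls.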

Additional observations from a re-analysis of the deposited data

Results flagged for a closer look

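In each group of 4 libraries, the gap between the highest or lowest library and the next was set against the range of the group (log2 CPM). Of 87 such groups 4 passed Dixon's 95% limit, where chance, at 1 in 20, gives 4.35. The gap was 0.918 of the range for Hoxa2, high in KO male 1 (2.04 CPM), and 0.902 for Hoxc11, high in KO male 1 (22.5 CPM). It was 0.896 for Hoxd9, high in KO female 2 (0.384 CPM), and 0.863 for Hoxc8, high in KO male 2 (15.1 CPM). Hoxd9 had 8 counts in KO female 2 and 0 counts in KO female 1, 3 and 4. The values at 0 counts differ through library size only, so the Hoxd9 gap carries little weight. Female WT, with 3 libraries, was not examined.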

How the results depend on the processing

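The number of Hox genes called lower in KO was 0 in edgeR, 2 with DESeq2 (also after dropping genes at 0 in every library, an input compared after seeing the data), 2 with voom, 2 with the replicate block, 1 with at least 10 counts in every library, 1 without the sex term and 0 to 2 when 1 library was left out (2 without WT male 3, 1 without KO male 2). The calls were Hoxc5 and Hoxc4, and no member was called higher under any alternative. Over all genes, edgeR called 129 lower and 94 higher, against 1139 and 952 with DESeq2, 1136 and 968 with its other input, 708 and 611 with voom, 42 and 32 without a filter, and 0 and 0 with either marker list as a covariate. The edgeR calls over all genes were 177 and 82 with the replicate block and 200 and 115 with at least 10 counts in every library. They were 276 and 195 without the sex term, 779 and 476 without WT male 3, and 163 and 82 without KO male 2. Deviations of same-numbered WT and KO libraries correlated with r of 0.186 to 0.607 in the 4 male-labelled pairs and 0.277, 0.068 and -0.031 in the female-labelled pairs 1 to 3. WT libraries correlated best with their own number in all but female 2 and 3, a hint from the data and not from the design. As not every r was over 0.1, the libraries were not treated as paired. The cluster shares moved by less than their SD with other gene lengths, without TMM scaling and without any 1 library, and the number of members at 1 CPM was 25 without TMM scaling and 24 to 26 without 1 library. The median log2 fold change of the members was -0.34 in male-labelled and -0.88 in female-labelled libraries alone.

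Log2 fold changes that changed sign were these. With voom they were -0.091 for Hoxd9, -0.516 for Hoxd8, 0.074 for Hoxa4, -1.111 for Hoxa13 and 0.104 for Hoxb7. With the replicate block they were -0.255 for Hoxd8, 0.035 for Hoxa4, -0.820 for Hoxa13 and 0.049 for Hoxb7, and with DESeq2 on either input 0.032 for Hoxa4. With the macrophage list as a covariate they were -0.963 for Hoxd9, -1.041 for Hoxd8, 0.019 for Hoxa2, 0.243 for Hoxa3, 0.156 for Hoxa4, -2.513 for Hoxa13, -1.194 for Hoxb9, 0.540 for Hoxc13 and 0.229 for Hoxc11. With the stromal list, added after seeing the data, they were 0.060 for Hoxa2, 0.166 for Hoxa3, 0.024 for Hoxa10, 0.592 for Hoxb8, 0.027 for Hoxb7, 0.555 for Hoxc13 and 0.563 for Hoxc12. In male-labelled libraries alone they were 0.208 for Hoxa4, -0.399 for Hoxa11, 1.595 for Hoxb8, 0.587 for Hoxb7, 0.036 for Hoxb6 and 0.280 for Hoxc13, and in female-labelled libraries alone -0.954 for Hoxb9. Without the sex term they were -0.271 for Hoxa11 and 0.248 for Hoxb8. With the male-labelled library of each near-identical pair kept they were 0.102 for Hoxa4, -0.172 for Hoxa11, 0.131 for Hoxb8 and 0.365 for Hoxb7, and with the female-labelled kept 0.132 for Hoxb7. Without the 3 libraries against their sex label they were 0.015 for Hoxb8 and 0.012 for Hoxb7. Without KO female 4 and WT male 4, an alternative added after seeing the data, they were 0.036 for Hoxa4, -0.427 for Hoxb9 and 0.118 for Hoxc13. Leaving out 1 library gave -0.082 to 1.393 for Hoxd8, -0.170 to 0.120 for Hoxa4, -0.255 to 0.685 for Hoxa11, -2.836 to 1.346 for Hoxa13, -0.876 to 0.192 for Hoxb8, -0.325 to 0.479 for Hoxb7 and -0.407 to 0.116 for Hoxc13. None of these values passed the test, and the cause was not tested.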
